A study of Rattus norvegicus with 16 samples.

Results

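Metallothioneins and the proteins that move zinc across membranes were followed in the livers of septic rats under isoflurane or propofol. The 6 genes were chosen by symbol: Mt1a, Mt2A, Slc39a14, Slc30a1, Slc30a10 and Mtf1. All 6 were found among the 17055 gene symbols of the count files. Metallothioneins are small cysteine-rich proteins that bind zinc and copper, and the liver makes them during inflammation while zinc leaves the blood. ZIP proteins (the Slc39a family) carry zinc into the cytosol, ZnT proteins (the Slc30a family) carry it out of the cytosol, and the transcription factor encoded by Mtf1 senses free zinc and switches on metallothionein genes and the zinc exporter gene Slc30a1. Slc39a14 is known as the ZIP carrier that takes zinc, iron and manganese into hepatocytes during the acute phase, and Slc30a10 exports manganese.

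Liver RNA was measured in male Sprague-Dawley rats aged 10 weeks, 8 h after the abdomen was opened, in 4 groups of 4 libraries. Libraries 1 to 4 are Isoflurane-Sepsis, libraries 5 to 8 isoflurane control, libraries 9 to 12 Propofol-Sepsis and libraries 13 to 16 propofol control. Sepsis was produced by cecal ligation and puncture, and controls had the sham opening of the abdomen under the same anesthetic. Each library was made from liver tissue pooled from 3 rats, so an SD here is a spread between pools, and the p-values measure that spread. Isoflurane rats were induced and maintained with isoflurane, whereas propofol rats were induced with ketamine and xylazine before propofol, and the file names of the isoflurane libraries carry one prefix and those of the propofol libraries another, whose meaning the labels do not give. The anesthetic, the induction drugs and anything that goes with the prefix therefore cannot be told apart.

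Between 14199422 and 49937173 reads fell on genes in each library. Summed levels of 8 hepatocyte markers lay between 106470 and 158824 CPM (the reads on a gene scaled to the reads on all genes of its library, after TMM scaling) over the 16 libraries, and none of them was at 0. Library 10 (Propofol-Sepsis) stood apart by 5066 reads on 7 brain marker genes, against 66 to 341 in the other 15 libraries, and fold changes and differences of the 6 genes that rest on it are given with and without it. In bulk liver, fewer cells of a type and less RNA per cell cannot be told apart.

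The upstream sequence of 4 of the 6 genes is shown because the zinc sensor encoded by Mtf1 acts through the metal response element, whose core is TGCACNC or TGCGCNC. The RefSeq table (build GRCr8) held a promoter for Mt1a, listed there as Mt1, and for Mt2A, Slc30a1 and Mtf1. Slc39a14 and Slc30a10 are named only. Each line gives the 250 bases before the annotated start of the gene, 5′ to 3′ on the strand of the gene, and capitals mark the metal response element cores found on either strand. The windows are chr19:10832976-10833225 on the minus strand for Mt1a, chr19:10838709-10838958 on the minus strand for Mt2A, chr13:106021769-106022018 on the plus strand for Slc30a1 and chr5:142346804-142347053 on the plus strand for Mtf1.
Mt1a: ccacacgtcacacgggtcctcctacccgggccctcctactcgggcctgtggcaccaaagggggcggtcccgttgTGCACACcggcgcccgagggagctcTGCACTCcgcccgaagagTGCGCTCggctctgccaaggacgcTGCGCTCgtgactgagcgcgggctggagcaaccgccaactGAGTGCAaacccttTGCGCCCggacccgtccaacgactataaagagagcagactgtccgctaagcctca
Mt2A: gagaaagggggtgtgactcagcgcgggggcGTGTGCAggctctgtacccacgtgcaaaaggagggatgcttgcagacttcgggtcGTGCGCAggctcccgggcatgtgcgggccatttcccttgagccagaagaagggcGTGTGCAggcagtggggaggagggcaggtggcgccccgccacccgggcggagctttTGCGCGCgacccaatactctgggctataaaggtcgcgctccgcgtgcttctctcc
Slc30a1: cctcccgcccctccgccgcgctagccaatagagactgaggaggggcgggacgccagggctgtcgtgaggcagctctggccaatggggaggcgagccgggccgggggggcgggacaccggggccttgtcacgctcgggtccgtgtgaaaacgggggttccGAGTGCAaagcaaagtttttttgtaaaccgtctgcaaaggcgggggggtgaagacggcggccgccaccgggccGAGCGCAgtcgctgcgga
Mtf1: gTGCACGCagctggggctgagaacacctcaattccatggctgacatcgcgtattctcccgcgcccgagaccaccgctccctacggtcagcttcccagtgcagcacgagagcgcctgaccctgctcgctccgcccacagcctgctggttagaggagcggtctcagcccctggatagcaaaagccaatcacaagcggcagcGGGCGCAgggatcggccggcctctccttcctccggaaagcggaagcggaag

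The Mt1a window held 6 cores, 5 of them on the strand of the gene, and the Mt2A window held 4, of which 3 lay on the opposite strand. Slc30a1 and Mtf1 held 2 each. No core overlapped another. Of 33469 rat promoter windows of the same length, 20.6% held at least 1 core, 4.9% at least 2, 0.266% at least 4 and 0.0269% at least 6. The binding motif of STAT proteins, TTCNNNGAA, was found in none of the 4 windows and in 7.67% of all promoters. A match of letters is a description of the window and was not tested as a binding site.

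**Figure D1:**
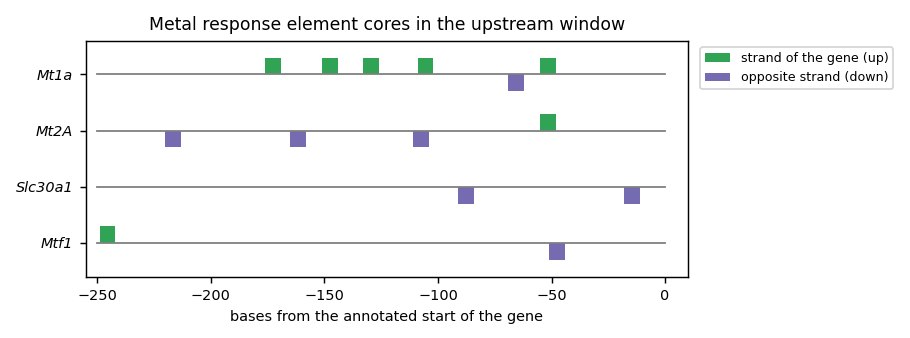
Position of each metal response element core in the 250 bases before the annotated start of 4 genes, with the x axis in bases from the start. Blocks above the line lie on the strand of the gene and blocks below it on the opposite strand. Mt1a carries 6 blocks, Mt2A 4, and Slc30a1 and Mtf1 2 each.

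Both metallothionein genes, Slc39a14 and, under propofol, Mtf1 rose in sepsis, while the exporter genes Slc30a1 and Slc30a10 fell under both anesthetics. With edgeR's quasi-likelihood test and Benjamini-Hochberg adjustment over all genes tested, 5 of the 6 genes were called at an adjusted p below 0.05 under isoflurane (3 higher, 2 lower), where 50% of the 10361 genes tested were called. Of those genes 25.7% were called higher and 24.4% lower. Under propofol all 6 were called (4 higher, 2 lower), where 42.1% of 10348 genes tested were called, with 20.4% called higher and 21.7% lower. The sepsis and control libraries did not overlap for 5 of the 6 genes under isoflurane and for 6 of 6 under propofol, against 48.7% and 42.2% of all genes tested. The median log2 fold change of all genes was 0.01 under isoflurane and -0.00 under propofol. The 2 within-anesthetic comparisons share no library. Without library 10, the propofol log2 fold changes were 0.96 for Mt1a, 0.93 for Mt2A, 0.53 for Slc39a14, -1.03 for Slc30a1, -0.70 for Slc30a10 and 0.53 for Mtf1, and all 6 calls were kept.

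Mt1a encodes one of the 2 metallothioneins that the liver makes in quantity. Under isoflurane, Mt1a stood at 2987, 3311, 3394 and 2367 CPM in sepsis libraries 1 to 4 and at 2166, 2149, 2094 and 2078 CPM in control libraries 5 to 8. Library 4 was well below the other sepsis libraries and still above every control. Mt1a was 1.42-fold higher in sepsis (log2 fold change 0.51, SE 0.114, adjusted p = 0.00598 by edgeR), and without library 4 the log2 fold change was 0.61. Under propofol, the sepsis libraries 9 to 12 held 2184, 2211, 2484 and 2536 CPM and the control libraries 13 to 16 held 1281, 1042, 1085 and 1518 CPM. The groups lay far apart, with a wider spread among the controls than under isoflurane. The rise was 1.90-fold (log2 fold change 0.93, SE 0.117, adjusted p = 0.000294 by edgeR).

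Mt2A, the neighbouring metallothionein gene, followed the same pattern. The 4 Isoflurane-Sepsis libraries held 4919, 5172, 5194 and 4362 CPM, and the 4 isoflurane controls held 3702, 3665, 3722 and 3526 CPM. All sepsis libraries were above all controls, with library 4 again the lowest of its group. The fold change was 1.35 (log2 0.43, SE 0.0769, adjusted p = 0.00206 by edgeR). Under propofol, sepsis libraries held 3701, 3706, 4441 and 4459 CPM and controls 2250.2, 1906, 1978 and 2689 CPM. The sepsis libraries fell into a lower and a higher pair, both above every control, and the fold change was 1.84 (log2 0.88, SE 0.116, adjusted p = 0.000373 by edgeR).

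The genes encode related proteins, and how the counting treated any reads shared by both is not known. Their separate values are uncertain to that extent, and their transcript sequences were not compared. With the reads of both summed into 1 feature, the log2 fold change was 0.46 under isoflurane (SE 0.0891) and 0.90 under propofol (SE 0.115), with adjusted p = 0.00302 and 0.000319 by edgeR. Mt1a drew between 54.3 reads (library 4) and 65.3 reads (library 3) for every 100 reads on Mt2A. The log2 ratio of Mt1a to Mt2A was 0.07 higher in sepsis under isoflurane and 0.05 higher under propofol, and neither difference exceeded the spread (exact permutation test, two-sided, p = 0.286 and 0.143, adjusted over 4 such tests p = 0.314 and 0.286). Their log2 levels ran together with a Pearson r of 0.993 over the 16 libraries, and of 0.935 after each group mean was taken off, values given as a description of genes that may share reads.

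Slc39a14, the hepatocyte importer, rose with a narrow spread between libraries. Its level was 1257, 1274, 1166 and 1157 CPM in Isoflurane-Sepsis and 929, 973, 916 and 991 CPM in isoflurane control. The lowest sepsis library was well above the highest control, and the fold change was 1.28 (log2 0.35, SE 0.0651, adjusted p = 0.00240 by edgeR). Propofol-Sepsis libraries held 1105, 1050.3, 1229 and 1174 CPM and propofol controls 799, 796, 821 and 826 CPM. The controls were almost level with each other and all sepsis libraries were higher, at a fold change of 1.40 (log2 0.49, SE 0.0610, adjusted p = 0.000289 by edgeR).

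Slc30a1, the exporter that carries zinc across the plasma membrane out of the cell, fell. Under isoflurane its level was 23.2, 19.7, 21.2 and 9.67 CPM in sepsis and 40.2, 42.6, 47.7 and 43.0 CPM in control. The groups did not overlap, and library 4 was the lowest of all 16 libraries. The septic livers were at 42.7% of control (log2 fold change -1.23, SE 0.227, adjusted p = 0.00242 by edgeR), and without library 4 the log2 fold change was -1.01. Under propofol the level was 31.3, 25.6, 27.9 and 27.9 CPM in sepsis and 52.8, 63.5, 70.2 and 51.2 CPM in control. The sepsis libraries were tightly grouped below a more scattered control group, at 47.2% of control (log2 fold change -1.08, SE 0.109, adjusted p = 0.000103 by edgeR).

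Slc30a10, the manganese exporter, also fell under both anesthetics. The Isoflurane-Sepsis libraries held 19.7, 15.5, 31.9 and 19.4 CPM, with library 3 above the rest, and the isoflurane controls held 46.5, 39.7, 50.1 and 43.6 CPM. The highest sepsis library stayed below the lowest control, and the mean was at 48.3% of control (log2 fold change -1.05, SE 0.206, adjusted p = 0.00322 by edgeR). The Propofol-Sepsis libraries held 35.7, 28.8, 34.8 and 34.5 CPM and the propofol controls 59.5, 51.6, 56.1 and 59.4 CPM. Library 10 was the lowest of its group, and the groups lay far apart. The level was 58.8% of control (log2 fold change -0.77, SE 0.0815, adjusted p = 0.000128 by edgeR).

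Mtf1, the zinc sensor, was read at low depth, with 81 to 282 reads per library. Its level was 7.08, 5.86, 6.68 and 6.40 CPM in Isoflurane-Sepsis and 5.64, 5.69, 5.11 and 5.87 CPM in isoflurane control. Library 2 lay just below the highest control, so the groups overlapped, and the log2 fold change of 0.22 (SE 0.100, 95% interval -0.00 to 0.45) was not called (adjusted p = 0.0897 by edgeR). Under propofol the sepsis libraries held 6.72, 7.33, 7.43 and 5.93 CPM and the controls 5.34, 4.83, 4.47 and 3.89 CPM. The groups did not overlap, and Mtf1 was 1.47-fold higher in sepsis (log2 fold change 0.56, SE 0.132, adjusted p = 0.00786 by edgeR).

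**Figure D2:**
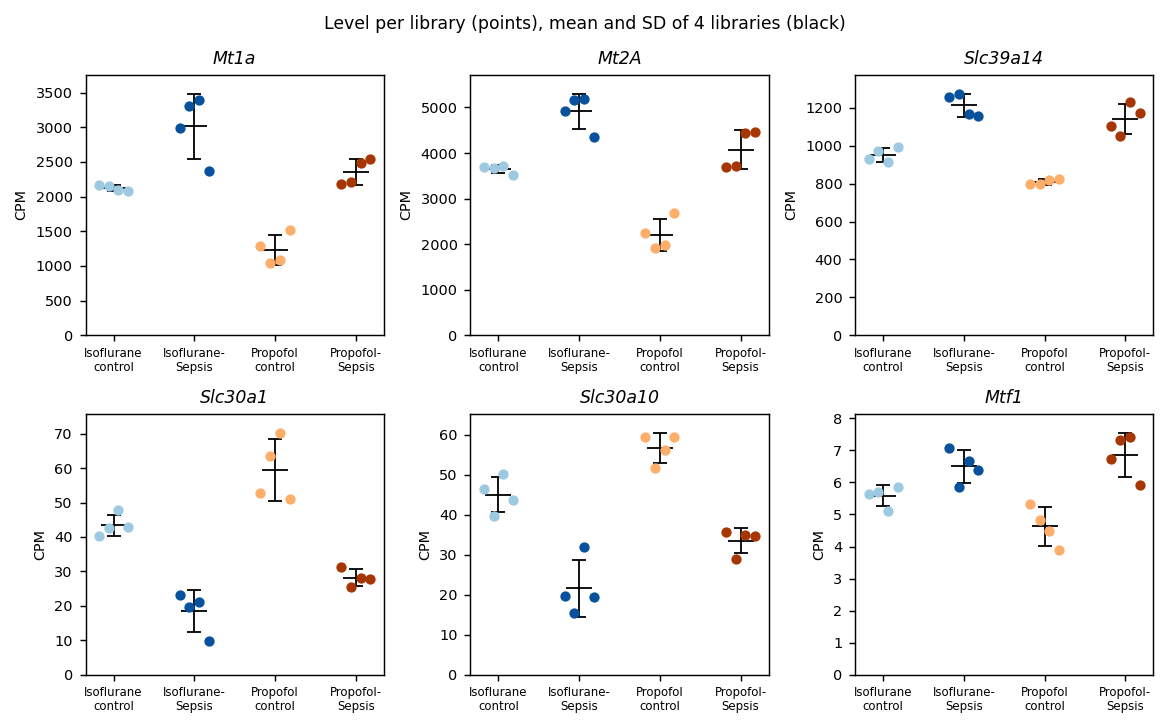
Level of each of the 6 genes in CPM after TMM scaling (y axis, from 0) in every library, by group (x axis), with black bars for the mean and SD of 4 libraries. In sepsis the points of Mt1a, Mt2A and Slc39a14 lie above their controls and those of Slc30a1 and Slc30a10 below them, under either anesthetic, while Mtf1 overlaps its control under isoflurane.

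Ordered by group mean, Mt1a ran from Isoflurane-Sepsis (3015 ± 466 CPM, SD, n = 4) through Propofol-Sepsis (2354 ± 182) and isoflurane control (2122 ± 42.5) to propofol control (1232 ± 218). The ranges of the 2 sepsis groups overlapped, and the other neighbours in this order did not. Mt2A had the same order at 4912 ± 387, 4077 ± 431, 3654 ± 88.1 and 2206 ± 355 CPM. Its propofol control group alone was separate from its neighbour, since the first 3 groups overlapped in turn. Slc39a14 again had this order, at 1214 ± 60.5, 1139.7 ± 78.5, 952 ± 35.3 and 811 ± 15.0 CPM, with an overlap between the sepsis groups only.

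The exporters ran the other way. Slc30a1 was highest in propofol control (59.4 ± 9.01 CPM), then isoflurane control (43.4 ± 3.16), Propofol-Sepsis (28.2 ± 2.38) and Isoflurane-Sepsis (18.4 ± 6.03), with no overlap between neighbours. Slc30a10 had the same order at 56.7 ± 3.71, 45.0 ± 4.40, 33.4 ± 3.15 and 21.6 ± 7.10 CPM. For this gene the 2 sepsis groups overlapped and the other neighbours did not. Mtf1 was highest in Propofol-Sepsis (6.85 ± 0.690 CPM), followed by Isoflurane-Sepsis (6.51 ± 0.513), isoflurane control (5.58 ± 0.329) and propofol control (4.63 ± 0.612), and each pair of neighbours overlapped.

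The control groups already differed between the anesthetics. In the fit of all 16 libraries, Mt1a was 1.72-fold and Mt2A 1.66-fold higher in isoflurane control than in propofol control (log2 difference 0.78, SE 0.120, and 0.73, SE 0.102, adjusted p = 0.000343 and 0.000191 by edgeR). Slc39a14 was 1.17-fold higher (log2 difference 0.23, SE 0.0602, adjusted p = 0.0104). These 3 of 6 genes were called where 26.3% of the 10621 genes tested were called, with 13% higher and 13.3% lower. Slc30a1 and Slc30a10 were lower in every isoflurane control than in any propofol control (39.7% of all genes tested did not overlap), with log2 differences of -0.45 and -0.33 that were not called (adjusted p = 0.0757 and 0.126 by edgeR). Mtf1 differed by 0.28 on the log2 scale and was not called either (adjusted p = 0.0821 by edgeR). With edgeR, Slc30a1 was called without library 4 (adjusted p = 0.00330), Slc30a10 without library 3 (0.0158) and Mtf1 without library 13 (0.0454). Libraries 3 and 4 are Isoflurane-Sepsis and enter this comparison only through the shared fit. Without library 4 the difference of Slc30a1 was still -0.45 (SE 0.0992). Without library 3 that of Slc30a10 was still -0.33 (SE 0.0933). With library totals alone in place of TMM scaling the call of Slc39a14 was lost (adjusted p = 0.289).

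Between the sepsis groups the order of the anesthetics was kept for the metallothioneins at a smaller size. Mt1a was 1.28-fold and Mt2A 1.20-fold higher in Isoflurane-Sepsis (log2 difference 0.36 and 0.27, adjusted p = 0.0277 and 0.0465 by edgeR). Both pairs of groups overlapped, the call for Mt1a was lost without library 2, 3, 9 or 10 (adjusted p between 0.0595 and 0.0857) and with library totals alone (0.173), and the call for Mt2A held in 10 of 23 settings. Slc30a1 was at 65.6% and Slc30a10 at 64.7% of its Propofol-Sepsis level (log2 difference -0.61 and -0.63, adjusted p = 0.0196 and 0.00716 by edgeR), and the call for Slc30a1 was lost without library 9 (adjusted p = 0.0520). Slc39a14 (0.09, 95% interval -0.04 to 0.22) and Mtf1 (-0.07, 95% interval -0.30 to 0.17) were not called. Without library 10 the differences were 0.33 for Mt1a, 0.23 for Mt2A, -0.65 for Slc30a1, -0.69 for Slc30a10, 0.05 for Slc39a14 and -0.03 for Mtf1. In all, 4 of 6 genes were called (2 higher, 2 lower), where 38.6% of all genes tested were called, with 19.6% higher and 19% lower. The 2 sepsis groups did not overlap for Slc30a1 alone, against 25.1% of all genes tested.

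The response to sepsis itself, isoflurane minus propofol, was tested as an interaction. For all 6 genes the difference lay below 0, that is, a smaller rise or a deeper fall under isoflurane, with a median of -0.32 against -0.02 over all genes tested. The sign was not particular to these genes. Of the 16 other zinc carrier genes tested, 14 also lay below 0, with a median of -0.18. None of the 6 was called by edgeR, where 2.72% of 10621 genes were called, with 1.66% higher and 1.06% lower. At an unadjusted p below 0.05 there were 3 of the 6, the metallothioneins and the sensor, against 23.1% of all genes tested. Mt2A differed by -0.46 on the log2 scale (95% interval -0.76 to -0.16, adjusted p = 0.0812 by edgeR). It was called by DESeq2 (adjusted p = 0.0457), which called 1 of the 6 and 850 of the 10621 genes tested. It was also called by edgeR without library 16 (adjusted p = 0.0326), where 250 of 10706 genes were called. Mt1a differed by -0.43 (95% interval -0.79 to -0.07, adjusted p = 0.148 by edgeR) and Mtf1 by -0.34 (95% interval -0.68 to -0.01, adjusted p = 0.204 by edgeR). The intervals of Slc39a14 (-0.14, from -0.32 to 0.04), Slc30a10 (-0.29, from -0.77 to 0.18) and Slc30a1 (-0.15, from -0.71 to 0.40) included 0, so these differences could not be told from 0 with 4 pools a group. For Slc30a1 the difference was 0.06 without library 4. Without library 10 the 6 differences were -0.50 for Mt2A (adjusted p = 0.0646 by edgeR), -0.46 for Mt1a, -0.31 for Mtf1, -0.18 for Slc39a14, -0.36 for Slc30a10 and -0.20 for Slc30a1, and none was called. The interaction is built from the same libraries as the comparisons above.

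**Figure D3:**
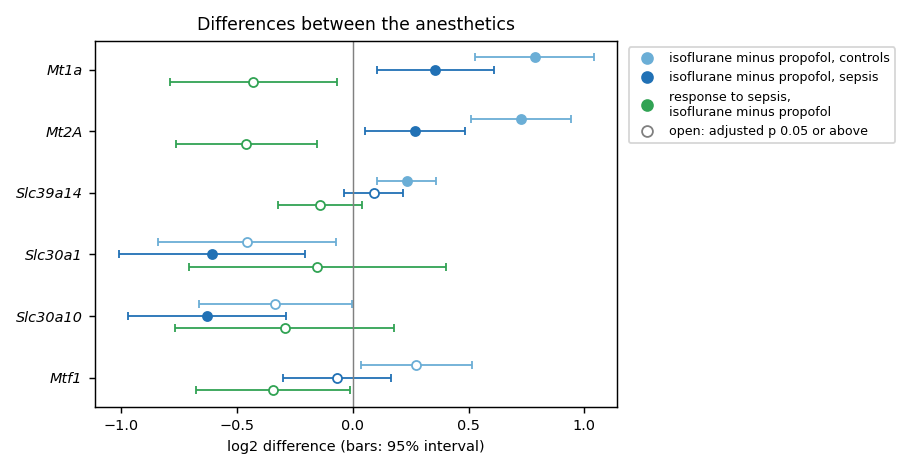
Log2 differences between the anesthetics (x axis) for the 6 genes, as isoflurane minus propofol in controls, in sepsis, and in the response to sepsis, with 95% intervals as bars. Filled points have an adjusted p below 0.05 by edgeR. Mt1a and Mt2A are filled in controls and in sepsis, and the 6 points for the response all lie below 0 and are open.

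The wider family was read from a list of 31 symbols for metallothioneins, Mtf1, ZnT and ZIP proteins, the 6 genes included. The files held 28, of which 22 were tested and 6 lay below the limit on low counts (Mt3, Mt4, Slc30a2, Slc30a8, Slc39a2 and Slc39a12). Under isoflurane 5 of 22 were higher and 8 lower, with a median log2 fold change of -0.12, and the count called is close to the 50% of all genes. Under propofol 9 were higher and 5 lower, with a median of 0.14, where 42.1% of all genes were called. These counts include the 6 genes. Of the 16 tested genes outside them, 2 were higher and 6 lower under isoflurane, with a median of -0.15. Under propofol 5 of the 16 were higher and 3 lower, with a median of 0.12. Outside the 6 genes the count called was thus near the share of all genes under either anesthetic. Among the 8 tested ZnT genes, Slc30a1 and Slc30a10 included, 1 was higher and 4 lower under isoflurane and 4 higher and 2 lower under propofol. Among the 11 tested ZIP genes, Slc39a14 included, 2 were higher and 4 lower under isoflurane and 2 higher and 3 lower under propofol.

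Of the ZnT genes other than Slc30a1 and Slc30a10, Slc30a4 rose by a log2 fold change of 0.36 under either anesthetic (adjusted p = 0.00385 under isoflurane and 0.00364 under propofol by edgeR). Its means were 51.4 ± 4.45 CPM in Isoflurane-Sepsis, 40.1 ± 1.5 in isoflurane control, 46.3 ± 3.74 in Propofol-Sepsis and 35.9 ± 2.07 in propofol control. Slc30a7, which supplies zinc to enzymes in the Golgi, rose by 0.67 under propofol (adjusted p = 8.83e-05) and was not called under isoflurane (0.18, adjusted p = 0.398), and the difference between these responses was not called (-0.50, adjusted p = 0.139). Slc30a5 (0.26, adjusted p = 0.0160) and Slc30a9 (0.15, adjusted p = 0.0493) were higher under propofol. Under isoflurane Slc30a5 stood at -0.12 and Slc30a9 at 0.01, and neither was called. Slc30a6, the partner of Slc30a5 in the secretory pathway, fell by 0.55 under isoflurane (adjusted p = 0.00339) and stood at -0.10 under propofol, not called.

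Slc30a3, known best for filling synaptic vesicles with zinc, was the 1 gene of the 22 whose response differed between the anesthetics by edgeR. Its level was low, at 15 to 113 reads per library. Isoflurane-Sepsis libraries held 1.10, 1.16, 0.83 and 0.91 CPM and isoflurane controls 2.82, 2.72, 2.69 and 2.35 CPM. Propofol-Sepsis libraries held 1.30, 1.56, 1.28 and 1.43 CPM and propofol controls 1.67, 2.21, 1.09 and 0.912 CPM. The isoflurane groups were far apart and the propofol groups overlapped, with the widest spread in propofol control. The log2 fold change was -1.40 under isoflurane (adjusted p = 0.000275) and -0.07 under propofol (adjusted p = 0.861), and the difference of -1.34 (SE 0.331) had an adjusted p of 0.0455, a call kept in 8 of 23 settings.

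Of the ZIP importers other than Slc39a14, Slc39a6 rose under isoflurane by 0.88 on the log2 scale (adjusted p = 0.00195), from 11.3 ± 1.88 CPM in isoflurane control to 20.7 ± 3.63 CPM in Isoflurane-Sepsis. It stood at 0.25 under propofol (adjusted p = 0.102, 14.3 ± 1.53 to 17.1 ± 2.33 CPM), and the difference between the responses was not called (0.62, adjusted p = 0.0988). Slc39a8, the closest relative of Slc39a14, fell under both anesthetics, by 0.56 under isoflurane (adjusted p = 0.000475) and by 0.40 under propofol (adjusted p = 0.0321). Slc39a3 fell by 0.63 and 0.28 (adjusted p = 0.00147 and 0.0198), and Slc39a13, a carrier of the secretory pathway, fell by 0.52 and 0.37 (adjusted p = 0.00395 and 0.0308). Slc39a11 fell under isoflurane by 0.40 (adjusted p = 0.0367) and was not called under propofol (-0.24). Slc39a9 was higher under propofol (0.29, adjusted p = 0.00554) and not called under isoflurane (-0.18). The ZIP genes called in neither anesthetic, Slc39a1, Slc39a4, Slc39a5 and Slc39a7, had log2 fold changes from -0.41 to 0.27. Over the 16 alternative settings, the propofol calls held in 3 for Slc30a9, 9 for Slc39a8, 12 for Slc39a13, 14 each for Slc30a5 and Slc39a3 and 15 for Slc39a9, and the isoflurane call of Slc39a11 held in 9. Without library 10, the propofol calls of Slc30a9 and Slc39a8 were lost (adjusted p = 0.0690 and 0.0638 by edgeR) and Slc39a6 was called (0.0394). The other propofol calls of the zinc list were kept, and for the difference in response Slc30a6 was called as well as Slc30a3 (adjusted p = 0.0469 and 0.0493).

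**Figure D4:**
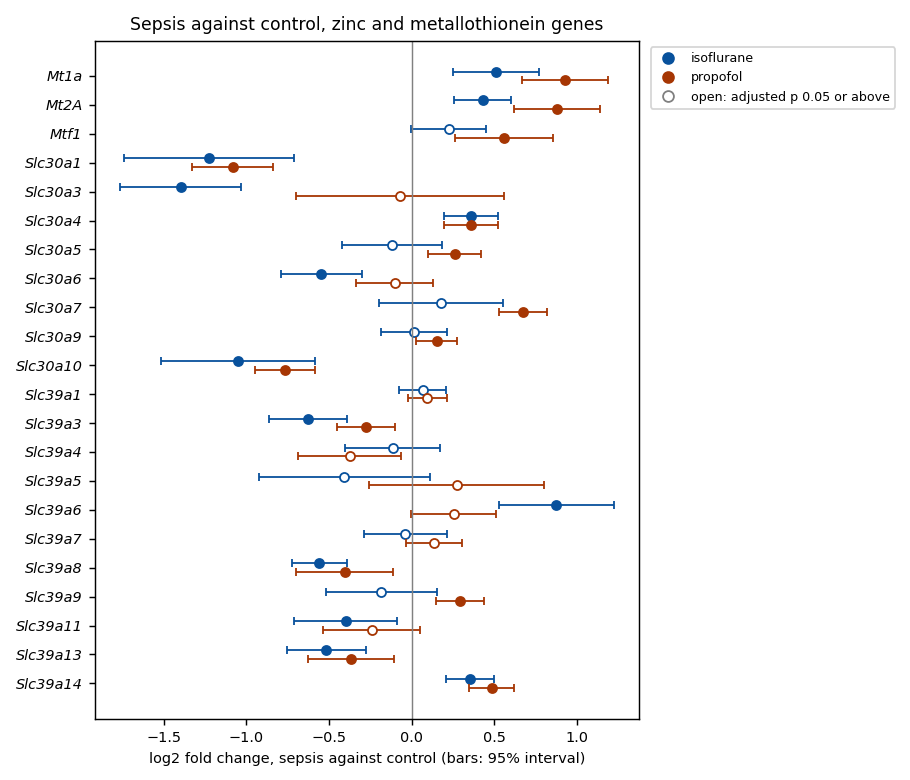
Log2 fold change of sepsis against control (x axis) for the 22 tested zinc and metallothionein genes (y axis), under isoflurane and under propofol, with 95% intervals as bars and open points where the adjusted p by edgeR was 0.05 or above. Slc30a1 and Slc30a10 lie far to the left under both anesthetics, Slc30a3 under isoflurane, and Mt1a and Mt2A lie to the right under both.

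Signals that are known to induce hepatic metallothionein were read from a list of 10 genes, the receptors, kinases and factors of interleukin-6 and glucocorticoid signalling with target genes. Under isoflurane 5 were higher and 3 lower, and under propofol 5 were higher and 2 lower, where 50% and 42.1% of all genes tested were called. Jak2, a kinase bound to cytokine receptors, rose by 1.5 and 1.76 on the log2 scale under isoflurane and propofol, and Socs3, the feedback inhibitor of that pathway, by 1.17 and 0.76. Il6st, the shared signalling receptor of the interleukin-6 family, rose by 0.32 and 0.21. Stat3 rose under propofol (0.38) and was not called under isoflurane (0.07). Il6r fell under isoflurane (-0.26) and was not called under propofol (0.10). For Stat3 and Il6r the difference in response was not called (-0.32 and -0.37, adjusted p = 0.0708 and 0.0807 by edgeR). Jak1 rose under isoflurane (0.24) and fell under propofol (-0.23), and that difference was called (0.46, adjusted p = 0.0220 by edgeR). Jak1 was the only 1 of the 10 genes called for the difference in response, where 2.72% of all genes tested were called.

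Among the glucocorticoid genes of that list, the receptor gene Nr3c1 rose under isoflurane (0.73, adjusted p = 0.0225 by edgeR) and was not called under propofol (0.10). Its Isoflurane-Sepsis libraries held 105, 137, 236 and 171 CPM and the isoflurane controls 93.2 to 106 CPM, so the groups overlapped. Tsc22d3, a glucocorticoid target, fell by 1.17 and 0.46 on the log2 scale, and Fkbp5, another target, fell by 0.72 under isoflurane and stood at -0.19 under propofol, not called. Tat, a target that encodes tyrosine aminotransferase, rose under propofol (1.31, adjusted p = 0.00869) and was not called under isoflurane (0.14). Its means were 2664 CPM in Isoflurane-Sepsis, 2419 in isoflurane control, 2443 in Propofol-Sepsis and 981 in propofol control, so that propofol control stood apart from the other 3 groups. The propofol controls 13 to 16 held 1274, 353, 1090 and 1208 CPM, with library 14 far below the rest. For Nr3c1, Fkbp5 and Tat the difference in response was not called (0.61, -0.53 and -1.18, adjusted p = 0.173, 0.265 and 0.0785 by edgeR). Without library 10 every propofol call named from this list was kept, with Tat at 1.32 and Jak2 at 1.82.

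Copper and manganese share carriers or binding proteins with zinc. Of 8 tested copper genes, 0 were higher and 4 lower under isoflurane, and 1 was higher and 1 lower under propofol, so that the share called was at the 50% of all genes under isoflurane and below the 42.1% under propofol. Atp7b, the ATPase that exports copper from hepatocytes, fell by 1.88 under isoflurane and 1.34 under propofol on the log2 scale (adjusted p = 7.28e-05 and 6.44e-05 by edgeR). Its means were 10.6 ± 2.46 CPM in Isoflurane-Sepsis, 39.3 ± 2.53 in isoflurane control, 16.9 ± 3.16 in Propofol-Sepsis and 42.6 ± 1.53 in propofol control. The copper importer gene Slc31a1 fell under isoflurane by 0.48, the chaperone gene Atox1 by 0.41 and Commd1 by 0.25. Under propofol Slc31a1 stood at -0.13, Atox1 at -0.17 and Commd1 at -0.17, and none of them was called. Atp7a, the copper ATPase of other tissues, rose under propofol by 0.74. Under isoflurane it stood at 0.44 and was not called (adjusted p = 0.0618 by edgeR). Of 5 tested manganese genes, Sod2, the mitochondrial manganese superoxide dismutase, rose by 2.84 and 2.42, and Slc11a2, a divalent metal importer, by 0.53 and 0.84. Slc40a1, the iron exporter, fell under propofol by 0.56 and stood at -0.12 under isoflurane, not called. Under propofol without library 10 these calls were kept, with Atp7b at -1.22 and Sod2 at 2.46. The difference in response was called for 0 of the 8 copper and 0 of the 5 manganese genes, where 2.72% of all genes tested were called.

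The genes outside the zinc list with the pattern most like each member were found by Pearson correlation of log2 CPM over the 16 libraries, as a description of levels that all carry the same 4 group means. For Mt1a they were Foxa1 (r 0.971), Sned1 (0.959) and Cdkn1b (0.957), and for Mt2A they were Foxa1 (0.955), Edar (0.950) and Sned1 (0.950). Foxa1, a liver transcription factor, stood at 69.8 CPM in Isoflurane-Sepsis, 41.5 in isoflurane control, 45.9 in Propofol-Sepsis and 23.97 in propofol control. For Slc39a14 they were Il1rn (0.970), which encodes the interleukin-1 receptor antagonist, Stx18 (0.962) and Jak2 (0.961). For Slc30a1 they were Slc26a1 (0.984), Decr2 (0.981) and Cyp2b1 (0.980). Slc26a1, a sulfate carrier, stood at 32.4, 167, 90.5 and 307 CPM in the same order of groups. For Slc30a10 they were Dhrs3 (0.946), Ptdss2 (0.944) and Rfc1 (0.944), and for Mtf1 they were Fbxl19 (0.890), Ate1 (0.890) and Atf2 (0.882). Without library 10 these values of r lay between 0.874 (Mtf1 with Atf2) and 0.983 (Slc30a1 with Slc26a1).

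Markers of some other cells moved in the same comparisons. The summed level of 8 neutrophil and monocyte markers was 41.0 to 119 CPM in Isoflurane-Sepsis against 18.6 to 21.9 in isoflurane control, and 44.3 to 59.1 CPM in Propofol-Sepsis against 22.7 to 29.4 in propofol control. Of 7 tested, 6 were higher under isoflurane and 5 under propofol, where 25.7% and 20.4% of all genes were called higher, and none was at 0 throughout. The 6 endothelial markers summed to 114 to 130 CPM against 159 to 194 under isoflurane and to 156 to 163 CPM against 187 to 226 under propofol. They did not move as one. Under isoflurane 0 were called higher and 4 lower, and under propofol 1 higher and 2 lower. Under propofol the mean of Kdr went from 45.1 to 12.8 CPM and that of Pecam1 from 16.7 to 22.3 CPM. Of the 8 hepatocyte markers, 1 was higher and 3 were lower under isoflurane, and 1 was higher and 2 were lower under propofol, where 24.4% and 21.7% of all genes were called lower. Between the control groups 5 of them were higher and 1 lower under isoflurane, where 13% and 13.3% of all genes were. The 6 macrophage markers summed to between 237 and 353 CPM and the 7 lymphocyte markers to between 1.17 and 4.11 CPM over the 16 libraries. Of the macrophage markers, 4 were called higher and 1 lower under isoflurane, and 1 higher and 1 lower under propofol. Of 4 stellate cell markers, 2 were higher and 1 lower under isoflurane, and 0 higher and 1 lower under propofol. Of 2 cholangiocyte markers, 1 was higher under isoflurane, and 0 were called under propofol. Of 5 erythroid markers, 0 were called under either anesthetic. The same shares of all genes, given above, apply to these counts and to the endothelial ones. The part of these cells in the results for the metallothioneins and zinc carriers was not tested.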

How the data were processed

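Liver RNA of 16 libraries was analysed, in 4 groups of 4 taken from the sample labels, each library a pool of 3 rats. The authors deposited counts, the whole number of reads on each of 17055 gene symbols per library, without normalization. The submitters' processing notes name STAR and rn5, while for the counting program and annotation the sources used here give no name. The kit keeps the strand. Reads outside genes (21.6% to 25.4%) and ambiguous reads (1.07% to 1.35%) were left out. No 2 libraries of a group agreed within sampling noise (chi-square per degree of freedom 3.35 to 96.3).

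Genes were kept by filterByExpr (minimum count 10, minimum total 15) and tested in R 4.3.3 by edgeR 4.0.16 (glmQLFit and glmQLFTest), with TMM scaling and Benjamini-Hochberg adjustment over all genes tested, at an adjusted p below 0.05. Sepsis was compared with control in fits of 8 libraries, and the other comparisons used 1 fit of 16. CPM per library used TMM factors over all 16 (0.920 to 1.09). Single ratios were compared by exact permutation over the libraries (two-sided, no p below 0.0286 possible). The scripts were tested on simulated data.

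The 6 genes and the lists were chosen with earlier results of these data known, and the brain markers and the values of the listed genes without library 10 were added after the data were seen. Named with values are the 6 genes, the zinc genes called within an anesthetic or in the difference between responses, the inducing, copper and manganese genes called within an anesthetic, and the 3 genes most like each of the 6. Alternatives were RLE factors, library totals alone, DESeq2 1.42.0, limma-voom (limma 3.58.1), thinning every library to 14199422 reads, a filter at a mean CPM of 1 or none at all, all 16 libraries in 1 fit, Mt1a and Mt2A summed, and each library left out. Promoters came from a RefSeq table (GRCr8), and no coordinates of the files were used.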

Additional observations from a re-analysis of the deposited data

Results flagged for a closer look

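Of 32 groups of 4 libraries looked at for a library far from the other 3, 2 held one. Some such cases arise by chance in this many groups. Slc30a10 stood at 28.8 CPM in library 10, the lowest of Propofol-Sepsis, whose other libraries lay between 34.5 and 35.7 CPM. This is also the library with 5066 reads on brain marker genes, and the part of those reads in this value was not tested. The log2 ratio of Mt1a to Mt2A was -0.83 in library 7, an isoflurane control, against -0.77, -0.77 and -0.76 in the other libraries of that group.

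The response of Slc30a3 to sepsis differed between the anesthetics by -1.34 on the log2 scale (isoflurane minus propofol, adjusted p = 0.0455 by edgeR), with 4 of 4 Isoflurane-Sepsis libraries below every isoflurane control.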

How the results depend on the processing

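No paired analysis was possible because the groups share no replicate numbers: the labels number the libraries 1 to 16. The calls of the 5 genes under isoflurane and the 6 under propofol held under every alternative tried, with each library left out as well. Mtf1 under isoflurane was called only with thinned counts (adjusted p = 0.0337, range 0.0337 to 0.217). With each library left out, the zinc list had 12 to 14 calls under isoflurane and 10 to 13 under propofol, and the controls 3 to 4 of the 6 genes. Over all genes these fits gave 4145 to 5668 calls under isoflurane, 3501 to 4291 under propofol and 2029 to 3229 between the controls. Mtf1 had 81 to 282 and Slc30a3 15 to 113 reads per library, and the part of counting error in their spread was not tested.

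For the difference in response, DESeq2 called 1 of the 6 genes and 2 of the zinc list, and without a limit on low counts or with thinned counts the list had 0 calls. Leaving out libraries gave 0 to 1 calls for the 6 genes (Mt2A without library 16, adjusted p = 0.0326 by edgeR). For the list it gave 0 to 6, with 6 without library 1 and 2 without library 10. The calls over all genes moved as well. DESeq2 called 850 of 10621 genes, against 289 of 10621 in the main fit. With no limit on low counts 168 of 14087 were called, and with thinned counts 202 of 10345. Without library 1 the calls were 1615 of 10708, and without library 10 they were 398 of 10659. The call of Slc30a3 was kept in 8 of 23 settings (adjusted p 0.0110 to 0.0932). Between the sepsis groups, library totals alone left 2 of 4 calls, and leaving out libraries gave 1 to 4, with 2 without library 2, 3 or 10 and 1 without library 9. Over all genes, 4614 of 10621 were called with library totals alone and 3414 of 10700 without library 9, against 4099 of 10621 in the main fit. Library totals alone moved the median of all genes to -0.15 between the controls and -0.16 between the sepsis groups. Between the controls they ended the call of Slc39a14 (adjusted p = 0.289) and made calls of Slc30a1 (0.0196) and Slc30a10 (0.0272). Slc30a1 between the controls was also called without library 4 (0.00330), Slc30a10 without library 3 (0.0158) and Mtf1 without library 13 (0.0454). Libraries 3 and 4 are not controls, and leaving them out changed the spread of the shared fit rather than the differences. The causes were not tested.

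Signs turned as follows. Slc30a9 under isoflurane went to -0.052 with library totals alone, -0.016 with no limit on low counts and -0.042 with thinned counts, and lay between -0.056 and 0.078 with each library left out (below 0 without library 1, 2 or 5). Slc30a7 under isoflurane lay between -0.0037 (without library 1) and 0.29. Slc30a3 under propofol went to 0.040 with limma-voom and lay between -0.25 and 0.20 (without library 14). The difference in response of Slc30a1 lay between -0.28 and 0.058 (without library 4). Between the sepsis groups, Slc39a14 went to -0.057 with library totals alone and Mtf1 to 0.030 with thinned counts.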

Other observations

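Mt3, the metallothionein best known from brain, had 38 reads in library 10 and 0 to 8 reads in each of the other 15 libraries, and was below the limit on low counts. The same library carried the brain marker reads given above.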
